A study of Mus musculus with 6 samples.

Results

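The replicative helicase is the motor that opens double-stranded DNA ahead of the polymerases during S phase. Its genes were followed here as 10 members, chosen by name from the deposited gene table (Mcm2, Mcm3, Mcm4, Mcm5, Mcm6, Mcm7, Mcm10, Cdc45, Gins1 and Gins2). Gins3 and Gins4, which encode further subunits of the helicase, lay outside the 10 and are given further on. All 10 were found among the 55487 genes of the table, and all 10 passed the filter on low counts that left 15298 genes for testing. The members were read in cells labelled as LT-HSCs, the long-term stem cells of the blood. The cells were sorted from the bone marrow of unirradiated wild-type mice as lineage-negative cells positive for Sca-1 and c-Kit and negative for Flk2 and CD34. Carnosine (the dipeptide made of histidine with beta-alanine) had been given to the mice behind 3 libraries and saline to those behind the other 3. The sources used here do not give carnosine's dose, route or duration, nor the mice's strain, age, sex or number.

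The helicase is built in steps. In G1, the origin recognition complex with CDC6 and CDT1 loads the ring of MCM2, MCM3, MCM4, MCM5, MCM6 and MCM7 onto origins, which is called licensing. In S phase CDC45 and the GINS complex join the ring to form the active CMG helicase, with MCM10 needed for its activation. Most LT-HSCs rest outside the cycle, and in old mouse stem cells low MCM gene expression has been described together with replication stress.

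In LT-HSCs from carnosine-treated mice, 8 of the 10 members rose and 0 fell, by 14% to 23.6% (edgeR quasi-likelihood test, Benjamini-Hochberg adjusted p under 0.05). Across all genes tested, 9.51% were called higher and 8.39% lower, 17.9% in all. At an unadjusted p under 0.05, 9 members were higher and 0 lower, where 16.8% of all genes were higher and 16% lower. DESeq2 called 7 members higher and 0 lower (5.6% and 5.61% of all genes with an adjusted p), and limma-voom 8 higher and 0 lower (9.58% and 8.44% of all genes). The median log2 fold change of the 10 members was 0.23, against 0.00 over all genes tested. All 6 ring subunits and Cdc45 rose, and Gins2 was called while Mcm10 and Gins1 were not. The Gins2 call was lost in 10 of 18 alternatives, among them DESeq2 and leaving out any 1 library. Levels are given in CPM, a gene's count scaled to the size of its library. Summed, the 10 members took 0.266%, 0.264% and 0.265% of all counts in the carnosine libraries, against 0.224%, 0.226% and 0.228% in the saline libraries. Nothing in the labels says whether each library came from its own mice, so p-values measure only the spread between libraries, which may be technical. In bulk RNA, more cells in cycle and more helicase RNA per cell cannot be told apart.

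**Figure D1:**
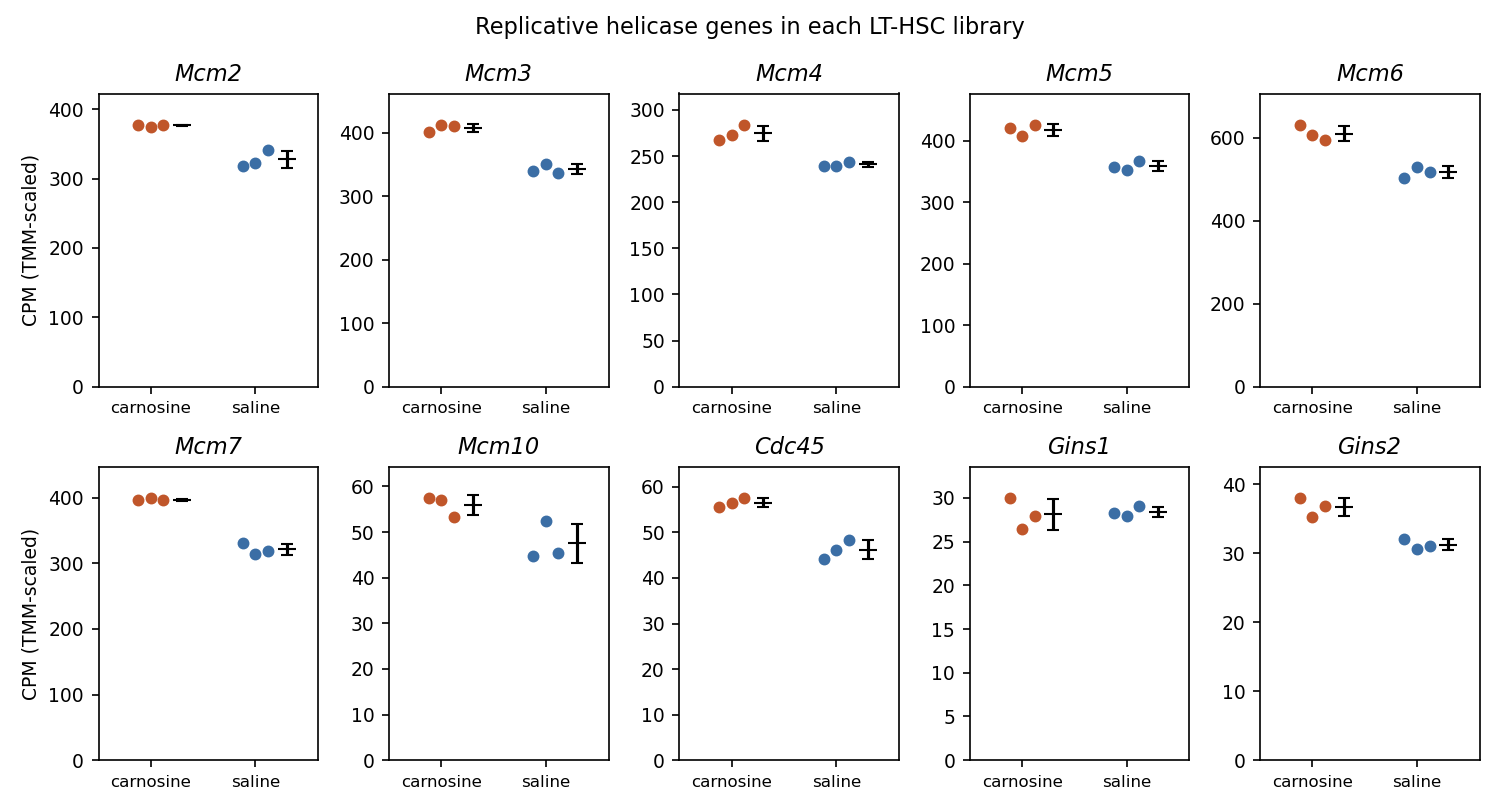
Level of each member in every library, in CPM after TMM scaling (y axis, from 0), with 3 carnosine libraries on the left and 3 saline libraries on the right of each panel; the black bar gives the mean and SD. In 9 panels every carnosine point lies above every saline point, and in the Gins1 panel the groups overlap.

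Library totals ranged from 10442112 to 13251332 counts in carnosine and from 10304539 to 13210166 counts in saline, and the members had between 275 and 7827 counts in a library. The defining genes of the labelled cell were read in all libraries at very different levels. Kit, which encodes the sorted receptor c-Kit, averaged 529.8 CPM in carnosine and 546 CPM in saline. Hlf, a transcription factor of stem cells, had 361, 211 and 205 CPM in carnosine, against 215, 209 and 222 CPM in saline, so that the higher mean in carnosine rests on library 1 alone. Ly6a, the gene of Sca-1, had 61.4, 53.8 and 84.4 CPM in carnosine, against 98.8, 56.2 and 64.7 CPM in saline, and the lower mean in carnosine rests on saline library 1. Slamf1 (3.64 CPM in carnosine, 4.28 CPM in saline) and Hoxb5 (1.62 CPM in carnosine, 1.75 CPM in saline), narrower markers of these cells, were low, with 15 to 66 counts per library. Of 8 stem cell genes, 1 (Mecom) rose and 0 fell by edgeR, near the 9.51% and 8.39% of all genes tested. At an unadjusted p under 0.05, 2 were higher and 0 lower, against 16.8% and 16% of all genes. The Mecom call was lost when any 1 library was left out. DESeq2 called 0 of the 8. The 8 summed to 949 to 1103 CPM in carnosine and 959.8 to 996.5 CPM in saline. Flt3, the gene of Flk2, and Cd34 were also read, at 774.5 and 861 CPM in carnosine and 818 and 857 CPM in saline, although the sort was for cells negative for both proteins.

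The ring subunits had the highest CPM of the members. Mcm7 (ENSMUSG00000029730, GRCm38 chromosome 5, 138164583 to 138172422, minus strand), part of the catalytic core of the ring, had 396, 399 and 396 CPM in carnosine, against 330, 314 and 319 CPM in saline. The carnosine libraries lay within 3 CPM of each other, and the closest libraries of the opposite groups were 65.8 CPM apart. Its change of 0.31 on the log2 scale (SE 0.03, edgeR adjusted p = 0.000404) was the largest among the 10 members. Mcm3 (ENSMUSG00000041859, chromosome 1, 20802968 to 20820312, minus strand), which in yeast docks the ring onto the loading complex, had 401, 412 and 411 CPM in carnosine, against 340, 351 and 336 CPM in saline. The groups did not overlap, and the log2 fold change was 0.25 (SE 0.03, edgeR adjusted p = 0.000980).

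Mcm6 (ENSMUSG00000026355, chromosome 1, 128331590 to 128359664, minus strand), another core subunit, had the highest level of the 10, at 631, 605 and 593 CPM in carnosine, against 502, 530 and 517 CPM in saline. All carnosine values were above all saline values although Mcm6 had the widest spread in CPM, and it rose by 0.24 on the log2 scale (SE 0.03, edgeR adjusted p = 0.00260). Mcm5 (ENSMUSG00000005410, chromosome 8, 75109569 to 75128439, plus strand), which with MCM2 forms the gate through which DNA enters the ring, had 420, 408 and 426 CPM in carnosine, against 358, 353 and 368 CPM in saline. Its groups were 39.97 CPM apart at the closest libraries (log2 fold change 0.22, SE 0.03, edgeR adjusted p = 0.00245).

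Mcm2 (ENSMUSG00000002870, chromosome 6, 88883474 to 88898780, minus strand), whose tail also binds histones, had 377, 375 and 377 CPM in carnosine, against 318, 322 and 342 CPM in saline. Here saline library 3 stood above the other saline libraries and still 33.0 CPM under the lowest carnosine library (log2 fold change 0.20, SE 0.03, edgeR adjusted p = 0.00569). Mcm4 (ENSMUSG00000022673, chromosome 16, 15623897 to 15637400, minus strand), a core subunit and substrate of the kinase that starts origins, had 267, 273 and 284 CPM in carnosine, against 240, 239 and 244 CPM in saline. It had the smallest change of the ring, 0.19 on the log2 scale (SE 0.03, edgeR adjusted p = 0.00633), and its groups were 23.5 CPM apart.

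Promoters of ring genes are shown here because the ring subunits rose together. E2F factors are known to drive MCM genes at the entry into S phase. Windows of 250 bases before to 50 after the RefSeq start (GRCm38.p6) were matched for 7 of the 10 members, that is for all but Mcm4, Gins1 and Gins2. They were searched on both strands for the E2F words TTTGGCGC, TTTCGCGC, TTTCCCGC and TTTGCCGC. Mcm3, Mcm5, Mcm6 and Mcm7 held at least 1 word, against 2.6% of the 27025 genes with a window and 4.83% of the 10145 tested genes with a window. These 4 windows are printed 5′ to 3′ on the strand of the gene, with the matches in capitals.
Mcm3, chr1:20820263-20820562, minus strand: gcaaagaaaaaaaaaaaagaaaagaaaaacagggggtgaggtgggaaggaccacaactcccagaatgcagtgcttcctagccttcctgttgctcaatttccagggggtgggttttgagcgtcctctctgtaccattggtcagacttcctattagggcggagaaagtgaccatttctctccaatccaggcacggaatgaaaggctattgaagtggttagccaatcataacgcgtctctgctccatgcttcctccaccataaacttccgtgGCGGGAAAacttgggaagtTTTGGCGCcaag
Mcm5, chr8:75109259-75109558, plus strand: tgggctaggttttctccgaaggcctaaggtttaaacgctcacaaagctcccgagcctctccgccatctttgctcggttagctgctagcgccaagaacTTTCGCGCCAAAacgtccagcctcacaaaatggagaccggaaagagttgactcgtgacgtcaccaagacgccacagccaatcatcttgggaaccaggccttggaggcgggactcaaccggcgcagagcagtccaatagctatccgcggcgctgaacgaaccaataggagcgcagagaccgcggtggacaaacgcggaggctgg
Mcm6, chr1:128359656-128359955, minus strand: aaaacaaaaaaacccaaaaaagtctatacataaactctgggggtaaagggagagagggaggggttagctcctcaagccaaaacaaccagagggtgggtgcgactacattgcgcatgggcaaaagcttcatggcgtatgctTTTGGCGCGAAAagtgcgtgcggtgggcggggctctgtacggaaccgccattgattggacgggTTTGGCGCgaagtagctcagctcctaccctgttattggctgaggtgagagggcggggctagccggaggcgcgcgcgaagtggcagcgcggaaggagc
Mcm7, chr5:138171834-138172133, minus strand: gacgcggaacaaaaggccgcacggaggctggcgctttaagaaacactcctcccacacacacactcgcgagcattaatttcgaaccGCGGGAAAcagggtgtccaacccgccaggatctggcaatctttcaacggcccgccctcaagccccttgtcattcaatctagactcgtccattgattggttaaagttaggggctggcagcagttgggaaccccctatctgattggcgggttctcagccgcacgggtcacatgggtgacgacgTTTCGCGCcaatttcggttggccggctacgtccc

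The words sat at different places. In Mcm5 a pair of words on opposite strands overlapped from position -153 to -142 before the start, and in Mcm6 an overlapping pair lay from -110 to -99 and a further word from -47 to -40. In Mcm3 both words lay after the start, from 20 to 27 and from 39 to 46, and in Mcm7 the words lay from -165 to -158 and from 17 to 24. The windows of Mcm2, Mcm10, Cdc45 and the second RefSeq start of Mcm7 held none of these words in full. That of Mcm10 ends in TTTGGCG, the word TTTGGCGC without its last letter, and the base after the window was not read.

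The shorter word CCAAT, the box bound by NF-Y, was present in all 7 members with a window and in 41.1% of all genes with one. At Mcm7 its last copy shared 1 base with an E2F word. Among all 490 tested genes with an E2F word, 75 (15.3%) were called higher and 40 (8.16%) lower, against 8.53% and 9.11% of all tested genes with a window. Other replication genes, described further on, also held these words. Of 5 relatives of the helicase with a window, 3 (60%) held a word and 0 of these were called. Of 15 licensing and firing genes 6 (40%) held one, with 2 higher, and of 24 fork genes 7 (29.2%), with 3 higher. Among the 7 members with a window the share was 57.1%. The median log2 fold change was 0.246 for the 4 members with a word and 0.239 for all 7 with a window. The median log2 fold change of the 7 fork genes with a word was 0.02, against 0.17 for all 24 fork genes with a window. A match is a string of letters, and binding was not measured.

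**Figure D2:**
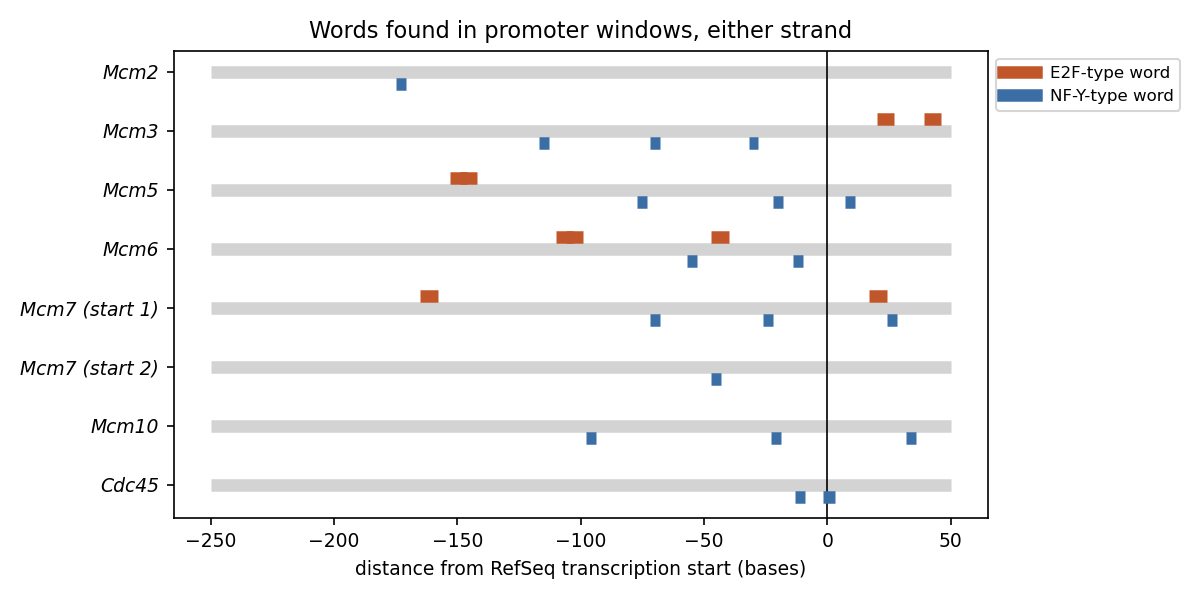
Place of E2F-type words (upper marks) and of the CCAAT box of NF-Y (lower marks) in the 8 promoter windows of 7 members, as distance in bases from the RefSeq start, either strand. E2F-type words stand in the windows of Mcm3, Mcm5, Mcm6 and the first start of Mcm7.

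The partners of the ring were less abundant. Cdc45 (ENSMUSG00000000028, chromosome 16, 18780447 to 18811987, minus strand), which locks the ring into its active form, had 55.6, 56.5 and 57.5 CPM in carnosine, against 44.2, 46.1 and 48.3 CPM in saline. The groups were 7.26 CPM apart, and Cdc45 rose by 0.29 on the log2 scale (SE 0.05, edgeR adjusted p = 0.0107), the second largest among the members. Mcm10 (ENSMUSG00000026669, chromosome 2, 4989714 to 5012791, minus strand), needed to activate the loaded helicase, had 57.4, 57.1 and 53.3 CPM in carnosine, against 44.7, 52.4 and 45.5 CPM in saline.

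All carnosine values of Mcm10 were above the saline ones, but saline library 2 came within 0.849 CPM of the lowest carnosine library. Mcm10 was not called, at 0.23 on the log2 scale (SE 0.07, edgeR adjusted p = 0.0681) and a 95% interval of 0.06 to 0.41. Without that saline library the log2 fold change was 0.31 and the gene was called (edgeR adjusted p = 0.0297). Leaving out any other library in its place left Mcm10 uncalled.

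GINS is a complex of 4 subunits, GINS1 to GINS4 (also PSF1, PSF2, PSF3 and SLD5), and 1 of its genes was called. Gins2 (ENSMUSG00000031821, chromosome 8, 120578633 to 120589304, minus strand) had 38.0, 35.3 and 36.8 CPM in carnosine, against 32.1, 30.6 and 31.1 CPM in saline. The groups did not overlap and it was called, at 0.23 on the log2 scale (SE 0.06, edgeR adjusted p = 0.0353) and a 95% interval of 0.09 to 0.37. That call was lost when any 1 of the 6 libraries was left out (edgeR adjusted p = 0.0553 to 0.110, log2 fold change 0.21 to 0.26), with DESeq2 (adjusted p = 0.190) and with a replicate block (adjusted p = 0.0741).

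Gins1 (ENSMUSG00000027454, chromosome 2, 150905400 to 150931280, plus strand) had 29.9, 26.5 and 27.97 CPM in carnosine, against 28.3, 27.9 and 29.0 CPM in saline. The saline values lay inside the range of the carnosine values. The log2 fold change was -0.01 (SE 0.07, edgeR adjusted p = 0.914), with a 95% interval of -0.18 to 0.15 that overlaps that of Gins2, and its sign turned when carnosine library 2 or saline library 3 was left out.

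The contrast between the GINS genes was looked at after their values were seen. The ratio of Gins1 to Gins2 FPKM (fragments per kilobase, scaled to library size) was 2.03, 1.93 and 1.96 in carnosine, against 2.27, 2.35 and 2.41 in saline. The ratios of the groups did not overlap, and an exact permutation test over the 6 libraries gave p = 0.1, two-sided, the smallest that 3 against 3 libraries allow. Without overlap that test can give no other value, so it adds nothing to the ratios themselves. Set against the mean FPKM of the 6 ring genes, Gins1 stood at 22.1 ± 1.29% in carnosine and 26.2 ± 0.457% in saline, and Gins2 at 11.2 ± 0.362% in carnosine and 11.2 ± 0.359% in saline (SD, n = 3 each). Of the remaining GINS genes, Gins4 averaged 44.3 ± 1.54 CPM in carnosine and 41.8 ± 0.746 CPM in saline (SD, n = 3 each, edgeR adjusted p = 0.329). Gins3, named outside the rule for gene names after its values were seen, averaged 13.7 ± 1.23 CPM in carnosine and 13.1 ± 0.357 CPM in saline (SD, n = 3 each, edgeR adjusted p = 0.660).

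**Figure D3:**
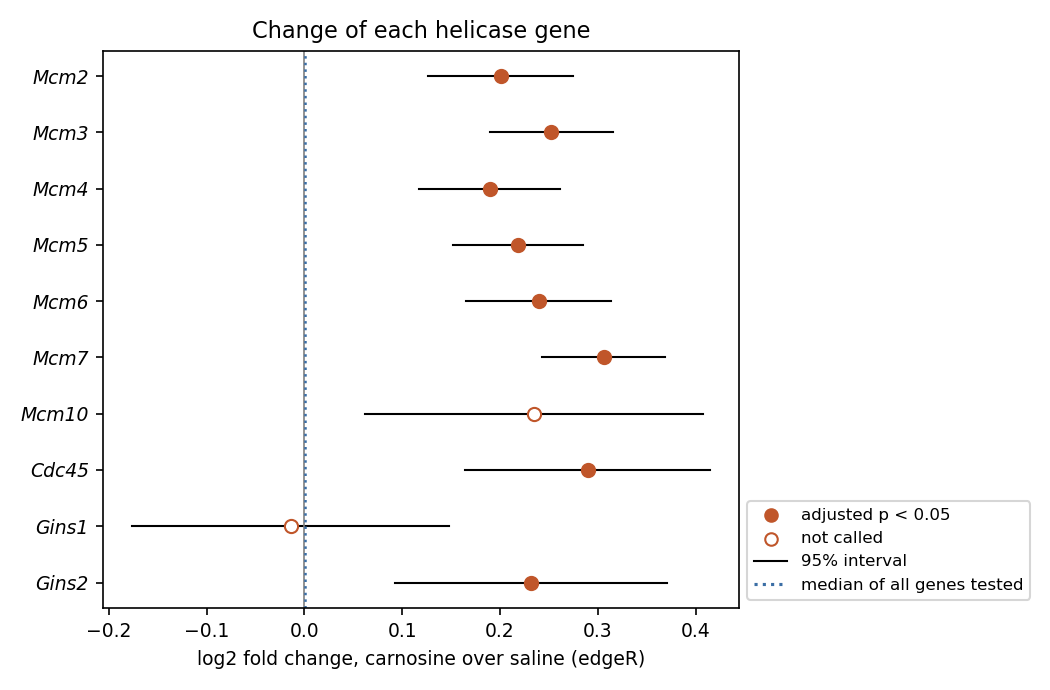
Log2 fold change of each member, carnosine over saline, from edgeR (x axis), with the 95% interval as a line; filled points passed an adjusted p of 0.05, and the dotted line is the median of all genes tested. The 8 called members lie between 0.19 and 0.31, Mcm10 lies among them with a wider interval, and Gins1 lies at 0.

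Without overlap between groups, 9 of the 10 members were higher and 0 lower in carnosine, where 19.7% of all genes tested were higher and 19% lower in this sense. Within the ring, the mean share of each subunit in the summed FPKM of the 6 genes differed between groups by at most 0.689 percentage points. Mcm7 made up 14.2 ± 0.129% of the sum in carnosine and 13.6 ± 0.446% in saline, and Mcm4 16.6 ± 0.490% in carnosine and 17.2 ± 0.118% in saline (SD, n = 3 each). These were the largest shifts among the 6 shares. The ratio of Mcm7 to Mcm4 FPKM was 0.878, 0.866 and 0.827 in carnosine, against 0.817, 0.778 and 0.776 in saline, without overlap and not tested further.

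Per length, ring genes stood well above their partners. In FPKM the order, from high to low and the same in both groups, was Mcm6, Mcm5, Mcm4, Mcm3, Mcm7, Mcm2, Gins1, Cdc45, Gins2 and Mcm10, with no overlap between the libraries of neighbours in either group. Mcm6 averaged 104 ± 3.27 FPKM in carnosine and 88.8 ± 2.35 FPKM in saline, and Mcm10 5.18 ± 0.213 FPKM in carnosine and 4.42 ± 0.394 FPKM in saline (SD, n = 3 each).

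The order rests on gene length. The lengths implied by counts, FPKM and totals ran from 1859 bases (Gins1) to 10749 bases (Mcm10) and were longer than the principal GENCODE M21 transcripts, which ran from 1087 bases (Gins1) to 4867 bases (Mcm10). For Mcm2 the implied length was 8950 bases and the principal transcript 3371 bases, whereas for Mcm4 the lengths were 4016 and 3589 bases.

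Per kilobase of principal transcript, Mcm6 remained first, with 209.5 ± 6.53 CPM per kilobase in carnosine and 177 ± 4.83 in saline (SD, n = 3 each). Mcm4 was now sixth, with 76.5 ± 2.32 CPM per kilobase in carnosine and 67.1 ± 0.713 in saline (SD, n = 3 each), instead of rank 3. Mcm3 (135 ± 2.12 in carnosine, 113 ± 2.47 in saline) and Mcm7 (134 ± 0.544 in carnosine, 108 ± 2.82 in saline) overlapped in both groups (CPM per kilobase, SD, n = 3 each). Mcm7 also overlapped with Mcm5 in saline. Cdc45 (26.4 ± 0.443 in carnosine, 21.6 ± 0.966 in saline) and Gins1 (25.9 ± 1.61 in carnosine, 26.1 ± 0.544 in saline) overlapped in carnosine, while in saline every Cdc45 value lay below every Gins1 value (CPM per kilobase, SD, n = 3 each).

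**Figure D4:**
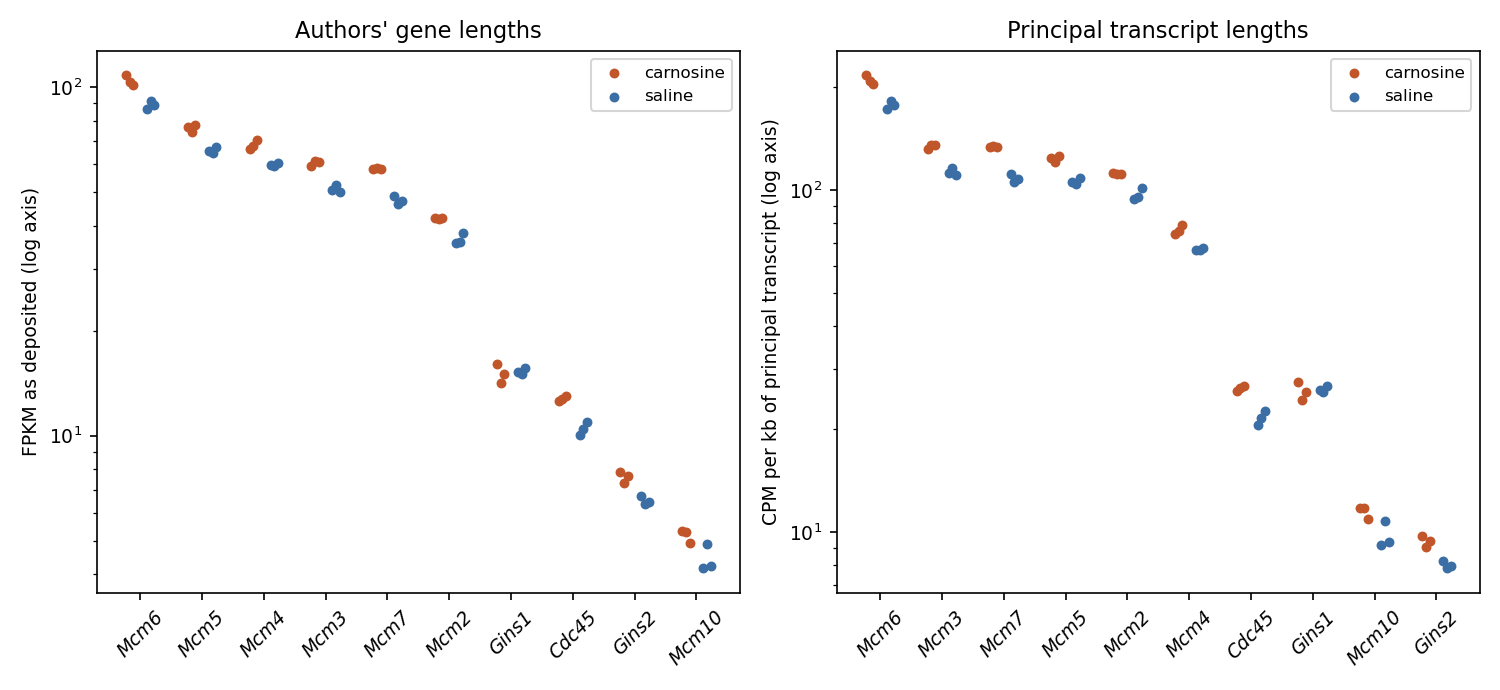
Level of each member in every library on a log axis, in deposited FPKM (left) and in CPM per kilobase of the principal transcript (right), carnosine points to the left of saline points. The ring genes form an upper group in both panels, and Mcm4 moves from rank 3 to rank 6 with the other length.

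Some members overlap other genes, taken as spans from gene start to gene end with introns. For reads in these spans, the strand setting of the counting is not given in the sources used here. Mcm7 overlaps Ap4m1 by 421 bases and Cops6 by 64 bases on the opposite strand. Ap4m1 had a log2 fold change of -0.14 (edgeR adjusted p = 0.0523) and Cops6 of 0.07 (edgeR adjusted p = 0.432). Mcm7 also hosts the microRNA hairpins Mir25, Mir93 and Mir106b, which had 2 or 3 counts in each group in sum. Cdc45 overlaps Ufd1 by 209 bases (log2 fold change of Ufd1 -0.01, edgeR adjusted p = 0.954). Gins2 overlaps the opposite-strand gene Gse1 by 2758 bases, and Gse1 fell by 0.25 on the log2 scale (edgeR adjusted p = 0.00107). Gm20388, also on the opposite strand, overlaps Gins2 by 10672 bases and has no row in the deposited gene table. What share of the reads these pairs hold in common was not tested.

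Genes related to the helicase by name, by contact or as further subunits, but not members, gave few calls. Gins3 and Gins4 are the subunits among them and were not called (log2 fold change 0.07 and 0.08 by edgeR). Of 7 tested, 0 rose and 2 fell, where 9.51% of all genes rose and 8.39% fell, so that the 0 is near the background (edgeR; 1 higher and 2 lower at an unadjusted p under 0.05, and a median log2 fold change of -0.02). Mcmdc2, a meiotic relative of the MCM genes, had 0.995, 1.35 and 0.985 CPM in carnosine, against 2.79, 2.62 and 2.27 CPM in saline (edgeR adjusted p = 0.0102), a call lost with DESeq2 (adjusted p = 0.0521). Mcm3ap, whose protein acts in RNA export and was named for its contact with MCM3, averaged 95.6 ± 1.63 CPM in carnosine and 107 ± 3.04 CPM in saline (SD, n = 3 each, edgeR adjusted p = 0.0273). The Mcm3ap call was lost when any 1 library other than saline library 3 was left out (edgeR adjusted p = 0.0658 to 0.0888), with DESeq2 (adjusted p = 0.164), with no filter on low counts (0.0885), with a replicate block (0.0753) and with a length and GC correction (0.0955). Mcmbp, which binds and stores MCM subunits, averaged 115 ± 4.93 CPM in carnosine and 106 ± 1.58 CPM in saline and was not called (SD, n = 3 each, edgeR adjusted p = 0.116).

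Upstream of the helicase lie the licensing and firing genes. Of 20 tested, 5 rose and 1 fell (edgeR, median log2 fold change 0.12), against the 9.51% and 8.39% of all genes. The firing genes gave 3 higher of 11, all called in each alternative. Ccna2, the S phase cyclin, averaged 161 ± 8.15 CPM in carnosine and 116 ± 2.24 CPM in saline (edgeR adjusted p = 0.000546), Topbp1, an activator of origins and of the ATR checkpoint, 342 ± 4.68 CPM in carnosine and 286 ± 4.89 CPM in saline (edgeR adjusted p = 0.000828), and Ticrr, which brings CDC45 to origins, 83.6 ± 2.10 CPM in carnosine and 69.8 ± 1.91 CPM in saline (SD, n = 3 each, edgeR adjusted p = 0.00759).

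The 9 licensing genes gave 2 higher and 1 lower. Orc1 (log2 fold change 0.36, edgeR adjusted p = 0.0444) and the licensing inhibitor Gmnn (0.21, edgeR adjusted p = 0.0298) rose, and Orc4, another origin recognition subunit, fell to 27.97 ± 0.670 CPM in carnosine, against 33.4 ± 0.882 CPM in saline (SD, n = 3 each, edgeR adjusted p = 0.0245). Orc4 and Gmnn lost theirs when any 1 library was left out (edgeR adjusted p = 0.0552 to 0.0792 and 0.0521 to 0.0945), and Orc1 without any 1 other than carnosine library 2 (edgeR adjusted p = 0.0791 to 0.131). The list's count of rises was 3 without carnosine library 1 or 3 or saline library 1 or 3. The ring loaders Cdc6 (0.12) and Cdt1 (0.03) were not called (edgeR adjusted p = 0.334 and 0.899).

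Downstream of the helicase, 13 of 28 fork genes rose and 0 fell (edgeR, median log2 fold change 0.18), where 9.51% of all genes rose and 8.39% fell. At an unadjusted p under 0.05, 16 were higher and 1 lower, where 16.8% of all genes were higher and 16% lower. DESeq2 called 9 fork genes higher and limma-voom 13, where 5.6% and 9.58% of all genes were higher, and both called 0 lower. Pola1, the catalytic subunit of the polymerase that lays down primers, averaged 234 ± 2.93 CPM in carnosine and 170.3 ± 2.22 CPM in saline (edgeR adjusted p = 6.81e-05), and its primase partner Prim2 63.9 ± 0.455 CPM in carnosine and 47.3 ± 1.14 CPM in saline (SD, n = 3 each, edgeR adjusted p = 0.000994). Tipin, of the fork protection complex that rides with the helicase, had 94.3 ± 1.66 CPM in carnosine and 73.8 ± 2.60 CPM in saline (SD, n = 3 each, edgeR adjusted p = 0.00186). Pole, the leading strand polymerase bound to the helicase, had 178 ± 2.76 CPM in carnosine and 151 ± 3.84 CPM in saline (SD, n = 3 each, edgeR adjusted p = 0.00329). The fitted log2 fold changes of Ccna2 (0.48), Pola1 (0.46) and Prim2 (0.43) were above that of Mcm7 (0.31), a difference between genes that was not tested.

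**Figure D5:**
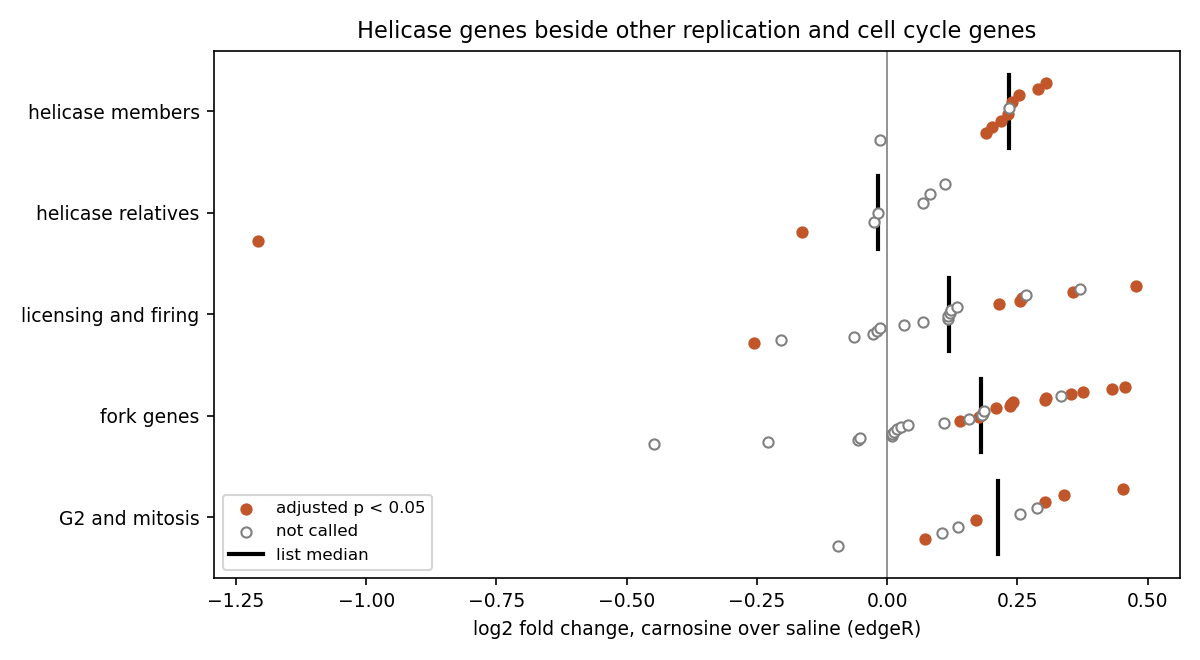
Log2 fold change of each gene, carnosine over saline (x axis), in the 10 helicase members, 7 relatives, 20 licensing and firing genes, 28 fork genes and 10 genes of G2 and mitosis; filled points passed an adjusted p of 0.05 in edgeR and black bars are list medians. The members lie close together around 0.23 with Gins1 apart at 0. Above 0 lie 9 of the 10 members, 9 of 10 genes of G2 and mitosis and 24 of 28 fork genes. The same holds for 14 of 20 licensing and firing genes and 3 of 7 relatives.

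Markers of other states and cell types moved as well. Among all genes tested, edgeR called 9.51% higher and 8.39% lower, and an unadjusted p under 0.05 gave 16.8% higher and 16% lower. Of 10 genes of G2 and mitosis, 5 rose and 0 fell (edgeR; 7 higher and 0 lower at an unadjusted p under 0.05, and 0 lower by DESeq2 and limma-voom), and their sum was 2049 to 2072 CPM in carnosine and 1790.2 to 1806 CPM in saline. The count of 5 rises became 3 with DESeq2, the threshold of 0.01 or the replicate block, and 6 with limma-voom. It was also 3 without carnosine library 2 or 3 or saline library 2 or 3. Among them Top2a, which untangles chromatids, averaged 829 CPM in carnosine and 672 CPM in saline, Mki67, a marker of cells in cycle, 716 CPM in carnosine and 680.5 CPM in saline, and Cdc20, an activator of mitotic exit, 110.6 CPM in carnosine and 98.3 CPM in saline.

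Of 10 erythroid genes 6 rose (0 fell by edgeR, also at an unadjusted p under 0.05, and by DESeq2 and limma-voom), with sums of 509 to 534 CPM in carnosine and 390.3 to 400.2 CPM in saline. They were led in level by Car2 (365 CPM in carnosine, 328.5 CPM in saline), Hbb-bt (48.2 CPM in carnosine, 15.5 CPM in saline) and Hba-a1 (45.3 CPM in carnosine, 13.7 CPM in saline). Of 10 multipotent and myeloid progenitor genes 5 fell and 0 rose, with sums of 2564 to 2613 CPM in carnosine and 2968 to 2997 CPM in saline. Dntt, the lymphoid enzyme TdT, averaged 374 CPM in carnosine and 452 CPM in saline, and the granule enzyme Mpo 306 CPM in carnosine and 516 CPM in saline. At an unadjusted p under 0.05 in edgeR 0 progenitor genes were higher, and DESeq2 and limma-voom called 0 higher at an adjusted p. With 9.51% of all genes called higher and 8.39% lower by edgeR, each count of 0 calls out of 10 is near the background.

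The 8 B lineage and plasma cell genes summed to 364 to 606 CPM in carnosine and 170.5 to 243 CPM in saline. Most of that sum was Jchain, the joining chain of secreted antibodies (456 CPM in carnosine, 136 CPM in saline), while Sdc1 (27.9 CPM in carnosine, 37.7 CPM in saline) and Cd79b (20.5 CPM in carnosine, 18.8 CPM in saline) were low. Of the 7 tested, 1 rose and 3 fell, where 9.51% of all genes rose and 8.39% fell by edgeR. Ms4a1 had 5 counts in carnosine and 17 in saline. The 6 neutrophil genes (3 tested, 0 called, and 0 at an unadjusted p under 0.05 by edgeR) summed to 4.32 to 12.6 CPM in carnosine and 2.98 to 7.43 CPM in saline. Ltf had 0.912, 8.85 and 0.985 CPM in carnosine, against 0.192, 0.291 and 4.70 CPM in saline, so that its level and the top of each sum rest on carnosine library 2 and saline library 3. S100a9 averaged 1.47 CPM in carnosine and 1.11 CPM in saline, and S100a8 1.06 CPM in carnosine and 0.947 CPM in saline. The part of these cells in the levels of the helicase genes was not tested, and no marker was at 0 in all libraries.

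The genes outside the members whose pattern over the 6 libraries came closest to the mean of the 10 were sought among the 10736 genes whose mean log2 CPM was 3 or more. Likeness was the root mean square difference of centred log2 CPM. The 5 nearest were Sik1 (0.00505), Ncapg (0.00783), Pmf1 (0.00795), Impdh2-ps (0.0136) and Pebp1 (0.0154). The members themselves lay between 0.0222 and 0.124 from their own mean. These ranges are not comparable, because the 5 are the smallest of 10736 distances and the members were not picked by distance. The mean pattern was 0.122, 0.0923 and 0.108 in carnosine and -0.125, -0.101 and -0.0962 in saline. Any gene with a like step and a small spread lies near it. Sik1, a salt-inducible kinase, averaged 1381 ± 19.6 CPM in carnosine and 1192 ± 8.49 CPM in saline (SD, n = 3 each). Ncapg, a condensin subunit, averaged 61.0 ± 0.610 CPM in carnosine and 52.5 ± 0.897 CPM in saline (SD, n = 3 each). Pmf1, a kinetochore protein, averaged 69.3 ± 1.17 CPM in carnosine and 59.5 ± 0.881 CPM in saline, and Pebp1, a kinase-binding protein, 181 ± 1.61 CPM in carnosine and 158 ± 0.655 CPM in saline (SD, n = 3 each). Impdh2-ps, a processed pseudogene in the deposited table, averaged 413 CPM in carnosine and 353 CPM in saline, and whether it shares reads with Impdh2 was not tested, so its values are uncertain.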

How the data were processed

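Bulk RNA was sequenced from 3 carnosine and 3 saline libraries, grouped by their titles. Per the labels' protocols, mRNA was taken by its poly-A tail with a stranded kit and read in pairs on a NovaSeq. HISAT2, StringTie, edgeR, CASAVA 1.8 and the build GRCm38 appear in the submitters' processing notes, and the strand setting of the counting is not given in the sources used here. For each gene the deposited table holds a raw count and an FPKM in every library, per the file headers. The counts were the basis of every main test, and the deposited FPKM of levels per length. Counts were filtered with filterByExpr (15298 genes left) and scaled by TMM (factors 0.998 to 1.003), and CPM refers to the counts of the genes left. The test was edgeR 4.0.16 (quasi-likelihood F test, R 4.3.3), two-sided. Benjamini-Hochberg adjustment ran over the genes left, with 0.05 as threshold. A library with 0 counts of a gene allows up to 3 counts, or 0.227 to 0.291 CPM, which covers counting error only. Positions and lengths came from GENCODE M21 (GRCm38), where all 10 members had the deposited positions, and promoters from RefSeq (GRCm38.p6).

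The members and gene lists were chosen with earlier results of these data known. The genes named were all members, the 4 of each pathway list with the smallest p and those called against the direction of most of the list, the 5 genes nearest in pattern, and the 3 most abundant of each marker list. Gins3, Orc1, Gmnn, Cdc6, Cdt1, Mecom, Slamf1, Hoxb5, Mpo, Ms4a1 and the genes that overlap members were named after their values were seen. Alternatives were DESeq2 1.42.0, limma-voom and limma-trend (limma 3.58.1) on FPKM with pseudocounts of 1 and 0.1, other scalings and filters, a threshold of 0.01, a replicate block, leaving out each library, and, added after seeing the data, a length and GC correction. The edgeR procedure was also run on simulated data with far fewer changed genes than were called here, and no result given here rests on that run.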

Additional observations from a re-analysis of the deposited data

How the results depend on the processing

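The count of 8 risen members was 6 to 9 over the 18 alternatives, with 0 fallen in each. Mcm2, Mcm3, Mcm4, Mcm5, Mcm6 and Mcm7 were called in all 18 and Cdc45 in 17, all but the threshold of 0.01. Gins2 was called in 8 and Mcm10 in 2. Gins1 was called in 0 of the 18 (edgeR, DESeq2 and limma; unadjusted p = 0.846 by edgeR), and its log2 fold change changed sign without the filter on low counts (9.4e-05); over the libraries left out in turn it ranged from -0.062 to 0.029. Gins4 was at -0.0073 with the length and GC correction, which was chosen after seeing the data. The 5 licensing and firing rises became 3 with no filter on low counts, DESeq2, the threshold of 0.01 and the replicate block, and 3 to 4 with 1 library left out. The 1 fall (Orc4) became 0 with no filter, DESeq2, limma-trend on FPKM with either pseudocount, the threshold of 0.01, the replicate block, the length and GC correction, and any library left out. The 13 fork rises became 8 at the threshold of 0.01, 9 with DESeq2 and 9 to 12 with 1 library left out. The 0 fork falls became 1 with limma-trend on FPKM with either pseudocount. The 2738 genes called overall became 1548 with DESeq2, 1107 at the threshold of 0.01, 1756 with the replicate block and 1753 to 1892 with 1 library left out, past a 1.5-fold drop for all but carnosine library 2 and saline library 1. The cause of these shifts was not tested, beyond the smaller number of samples or the stricter threshold. Libraries with the same number did not deviate together (correlations of deviations -0.0495, -0.0686 and 0.0188), so the number was not taken as a pairing; with the replicate block 7 members, 3 licensing and firing genes and 1756 genes in all were called. Depth limits Gins1, Gins2, Cdc45 and Mcm10 most, with 275 to 758 counts per library, against 2463 or more for the ring subunits, and no group of 3 allows a check for outlying libraries.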
